A study of Mus musculus with 10 samples.

Results

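The 9 genes described here encode transcription factors that set or mark lymphatic endothelial identity and build lymphatic valves: Prox1, Nr2f2, Sox18, Gata2, Foxc1, Foxc2, Nfatc1, Tbx1 and Hhex. They were chosen by name, for their known roles, with earlier results of these data known. All 9 were found among the 42613 genes joined over 8 Smart-seq plates of mouse ear-skin lymphatic endothelial cells (LECs). They were also found among the 32285 genes of 2 droplet libraries of skin endothelial cells. The plates compared deletion of Tie1, or of Tie1 and Tie2 together, with controls that lacked Cre, and the droplet libraries compared an antibody against Ang2 with an IgG control. Tie1 and Tie2 are endothelial receptor tyrosine kinases, Tie2 (gene symbol Tek) is the receptor of the angiopoietins, and Ang2 (Angpt2) is the angiopoietin that endothelial cells themselves release.

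Lymphatic endothelium in the embryo arises largely from veins. SOX18 and COUP-TFII (Nr2f2) switch on Prox1 in venous cells, and PROX1 then imposes and keeps the lymphatic programme, including the growth factor receptor VEGFR3 (Flt4). GATA2 acts upstream of Prox1 and Foxc2 in valve-forming cells, FOXC2 and its relative FOXC1 act with the calcium-responsive factor NFATc1 in valve morphogenesis and collector maturation, TBX1 is needed for lymphatic vessel growth, and HHEX is an early endothelial factor upstream of VEGFR3 and Prox1. Lymph enters through blind-ended capillaries, drains into collecting vessels (collectors), and is kept from flowing back by the valves.

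Each of the 4 genotypes had 2 plates. Tie1fl/fl mice carried floxed Tie1 without Cre, and Tie1iΔLEC mice carried the same alleles with Prox1CreERT2. Tie1 Tie2fl/fl mice carried floxed Tie1 and floxed Tie2 without Cre, and Tie1 Tie2iΔLEC mice carried both with Prox1CreERT2. All plate mice, controls included, received 62.5 µg 4-hydroxytamoxifen daily from P1 to P5, were labelled with that age, and were collected at 4 weeks by the methods. Ear-skin cells positive for CD31 and podoplanin were sorted into wells. Replicate 1 of Tie1fl/fl and of Tie1iΔLEC came from females and replicate 2 from males, whereas all double-floxed plates came from males. Since no control carried Cre, the presence of the transgene and the deletion cannot be told apart, and the promoter that drives this Cre belongs to Prox1, itself a member. The 2 droplet libraries were of CD31-sorted cells from male C57Bl/6j wild-type mice labelled P1-P21. The IgG library came from mice given control IgG and the other from mice given the Ang2 antibody 18E5, at 20 mg/kg every 3 days from P16 to P21. The title of the Ang2 antibody library also contains the word control, and its treatment label was followed.

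Plates held 71249858 to 110741537 counts. After wells named keratinocyte (28) and a low-depth cluster that carried all 5 fibroblast markers (292) were set aside, 305 to 355 LEC wells per plate remained, with 66693208 to 103524799 counts, and their values were summed per plate. The set-aside low-depth cluster still held Prox1 at 603 CPM, counts per 1000000 counts of the library (scaled by TMM for sums over all LEC wells). The pan-LEC marker list summed to 6165 to 7477 CPM over the plates and the blood endothelial list to 543 to 825 CPM. As a check of the deletions, Tie1 stood at 680 and 653 CPM in Tie1iΔLEC and 743 and 457 CPM in Tie1 Tie2iΔLEC against 2212 to 2857 CPM in the 4 control plates, and Tek at 32.5 and 51.3 CPM in Tie1 Tie2iΔLEC against 214 to 339 CPM in the other 6 plates. Of the droplet barcodes, 3438 (IgG) and 2963 (Ang2 antibody) passed the filters, with 1285 and 736 named LEC and 1296 and 1325 named blood endothelium. The libraries shared 5 barcodes, 2 of them among kept cells. In summed wells, fewer cells of a type and less RNA per cell cannot be told apart.

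The upstream windows of Prox1 and Gata2 are shown because Prox1 supplies both the lymphatic marker and the Cre promoter and because Gata2 gave the smallest p among the members after the Tie1/-2 deletion. They come from RefSeq on GRCm38.p6, with 250 bases before each start, 5′ to 3′ on the gene's strand, and capitals mark the forkhead letters TGTTTA. Prox1 has 2 listed starts. Its upstream window, at chr1:190170828-190171077 on the minus strand, lies outside the annotated gene with 64.8% GC. Its other window, at chr1:190169516-190169765 on the minus strand, lies within the gene body and outside its annotated exons, with 56.0% GC. The Gata2 window, at chr6:88193641-88193890 on the plus strand, ends directly before the annotated gene and has 67.2% GC. Gata2 has another listed start, whose window lies within an annotated exon of the gene and is not shown.
Prox1, upstream window: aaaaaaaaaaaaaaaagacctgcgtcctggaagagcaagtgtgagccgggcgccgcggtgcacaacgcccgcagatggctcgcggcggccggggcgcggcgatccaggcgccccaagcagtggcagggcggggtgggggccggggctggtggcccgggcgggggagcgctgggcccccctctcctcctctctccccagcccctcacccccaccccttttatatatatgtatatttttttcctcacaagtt
Prox1, inner window: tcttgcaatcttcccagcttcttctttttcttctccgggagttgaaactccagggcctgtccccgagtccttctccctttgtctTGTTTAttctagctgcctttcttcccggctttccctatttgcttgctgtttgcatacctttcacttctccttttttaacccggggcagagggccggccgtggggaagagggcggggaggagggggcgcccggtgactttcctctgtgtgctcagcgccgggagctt
Gata2, upstream window: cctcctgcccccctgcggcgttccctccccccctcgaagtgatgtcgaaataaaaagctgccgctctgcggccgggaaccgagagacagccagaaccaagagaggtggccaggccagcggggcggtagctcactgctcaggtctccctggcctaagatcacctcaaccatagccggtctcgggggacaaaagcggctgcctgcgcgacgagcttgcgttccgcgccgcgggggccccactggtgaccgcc
Motifs were searched on both strands as plain letters. TGTTTA stood 166 bases before the inner Prox1 start and in no other of the 9 member windows given, while 12% of 32851 windows in the reference held it. The NFAT letters GGAAA stood in 4 member windows, both of Prox1 and those of Nr2f2 and Foxc1, against 55.6% of all windows. The GATA letters AGATAA (9.99% of all windows) and the SOX letters ACAATG (10.7%) stood in none of the 9. RefSeq windows were not listed for Sox18, Foxc2 and Nfatc1.

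On GRCm38 with GENCODE annotation, Prox1 (ENSMUSG00000010175) lies at chr1:190118035-190170714 on the minus strand, Nr2f2 (ENSMUSG00000030551) at chr7:70351944-70366735 on the minus strand, and Sox18 (ENSMUSG00000046470) at chr2:181669836-181671640 on the minus strand. Gata2 (ENSMUSG00000015053) lies at chr6:88193891-88207032 on the plus strand, Foxc1 (ENSMUSG00000050295) at chr13:31806633-31812476 on the plus strand, and Foxc2 (ENSMUSG00000046714) at chr8:121116171-121118895 on the plus strand. Nfatc1 (ENSMUSG00000033016) lies at chr18:80606205-80713071 on the minus strand, Tbx1 (ENSMUSG00000009097) at chr16:18580979-18590671 on the minus strand, and Hhex (ENSMUSG00000024986) at chr19:37434810-37440731 on the plus strand. Exons of the antisense genes Prox1os and B130024G19Rik overlap exons of Prox1 and Nr2f2, and without a stated strand setting their reads cannot be told apart from those of the members.

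On the plates, levels of different genes were compared per length, as CPM per kilobase of exon. In the 4 control plates Sox18 was the highest member at 736 ± 143 CPM per kilobase (SD, n = 4). Foxc2 followed at 127 ± 8.40, Tbx1 at 95.8 ± 16.3, Prox1 at 93.8 ± 12.5, Nfatc1 at 77.9 ± 16.6 and Gata2 at 67.3 ± 7.12 CPM per kilobase. Among these 5 middle members each overlapped with the next in the order, so neighbours are not separated beyond the plate spread. Some members further apart did not overlap. The lowest Foxc2 plate (115) lay above the highest Prox1 plate (107). The lowest plates of Tbx1 (76.4) and Prox1 (82.0) lay above the highest Gata2 plate (70.9). Hhex was at 30.2 ± 2.16, Nr2f2 at 15.8 ± 2.19 and Foxc1 at 1.45 ± 0.459 CPM per kilobase, and each of these 3 lay below the member before it in every control plate. Foxc1 was therefore close to the lower end of what the plates could measure, with counts in 2.36% to 12% of LEC wells after each well was thinned to 50000 counts. Sox18 was found in 98.5% to 100% of wells and Prox1 in 86.9% to 100%. The order was another in LECs of the IgG droplet library, where levels were not scaled by length. Prox1 had 19639 molecule counts (UMIs) there, Nr2f2 7711, Sox18 6994, Nfatc1 4454 and Tbx1 2383. Foxc2 had 1873, Gata2 1577, Hhex 1347 and Foxc1 804. The place of a member in the plate order therefore holds for the plates.

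**Figure D1:**
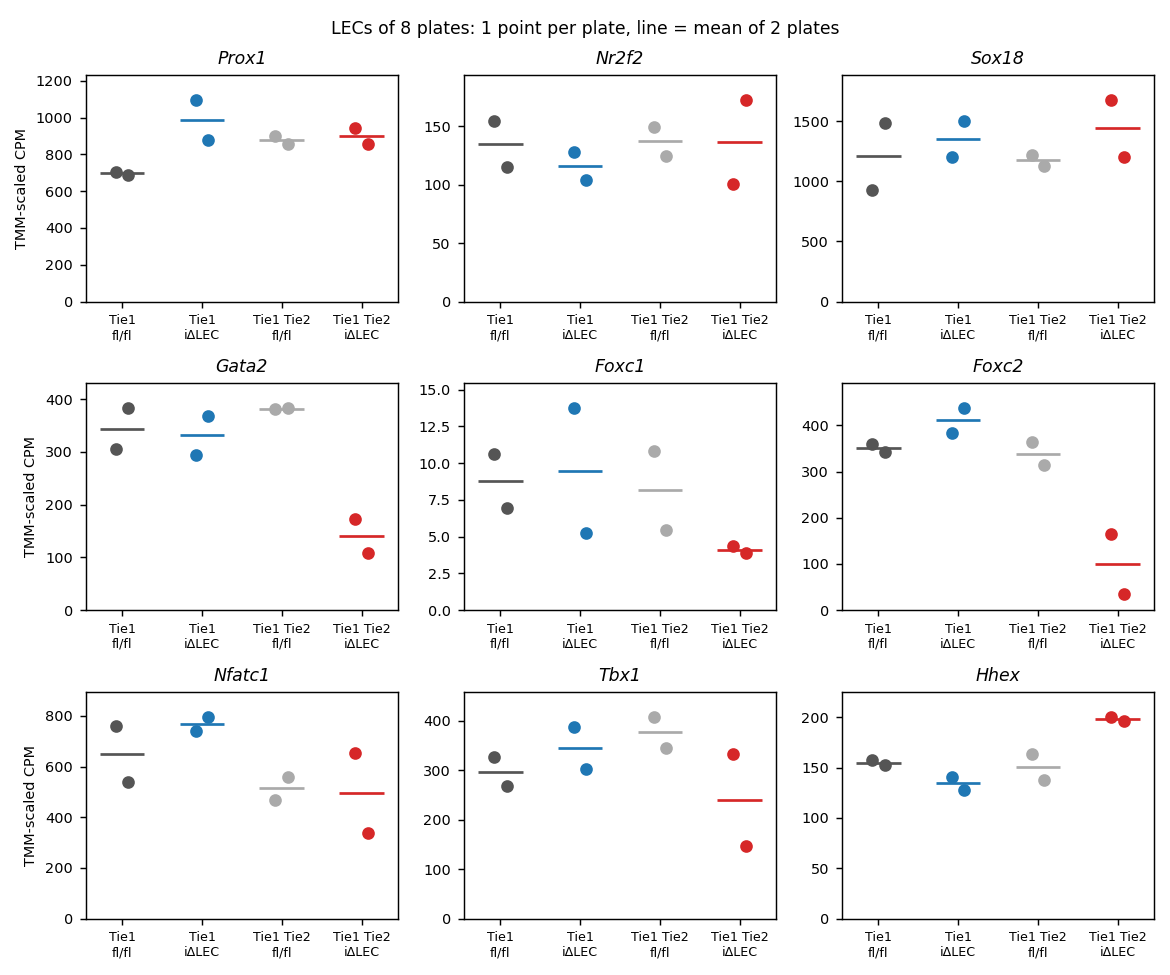
TMM-normalized CPM of each member (vertical axes, linear from 0) in the summed LEC wells of the 8 plates, by genotype, 1 point per plate and a bar at the mean of 2 plates. Gata2, Foxc1 and Foxc2 had both Tie1 Tie2iΔLEC plates below the other 6, and Hhex had both above.

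Across the anatomical classes of LECs, valve-like wells held more Prox1, Gata2, Foxc2 and Nfatc1 than capillary-like or collector-like wells, and capillary-like wells held more Nr2f2 than valve-like or collector-like wells. The classes were clusters named from capillary (4 of 6 raised), collector (7 of 7) and valve markers, and all members were left out of the genes used to cluster. The valve-like class joined 2 clusters, a larger one of 392 wells led by Slc41a1 and Neo1 and a smaller one of 79 wells led by Hbegf and Sbspon. Each plate gave 27 to 81 capillary-like and 35 to 78 valve-like wells, and 37 to 69 collector-like wells except in the Tie1 Tie2iΔLEC plates, which had 9 each. Differences between classes were taken within a plate on the log2(CPM + 1) scale and tested over the 8 plates with an exact two-sided sign-flip permutation test, whose smallest p is 0.00781. The test covers only the plates' spread, as all classes of a plate came from 1 sort and the classes were built from other genes of the same wells. Valve-like and capillary-like wells differed for 5 of the 9 members, against 15.6% of all genes tested.

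Gata2, the zinc-finger factor of valve-forming cells, showed the widest separation. Its valve-like level was 893 and 708 CPM in Tie1fl/fl, 630 and 689 CPM in Tie1iΔLEC, 746 and 713 CPM in Tie1 Tie2fl/fl, and 302 and 190 CPM in Tie1 Tie2iΔLEC. In capillary-like wells the same plates gave 208, 212, 157, 237, 160, 193, 141 and 69.5 CPM. Every plate was higher in valve-like wells, and in both classes the Tie1 Tie2iΔLEC plates were the lowest 2. How many of all genes were so within a class was not counted. The valve to capillary difference was 1.75 ± 0.38 log2 (SD, higher in 8 of 8 plates, exact sign-flip p = 0.00781). Collector-like wells stood between, at 94.1 to 646 CPM, higher than capillary-like wells in 8 of 8 plates by 0.91 ± 0.59 log2 (exact p = 0.00781) and lower than valve-like wells by 0.84 ± 0.67 log2 (exact p = 0.0156).

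Foxc2, the forkhead factor of valves and collectors, was at 545 and 671 CPM in valve-like wells of Tie1fl/fl, 842 and 709 CPM in Tie1iΔLEC, 523 and 452 CPM in Tie1 Tie2fl/fl, and 288 and 63.8 CPM in Tie1 Tie2iΔLEC. Capillary-like wells of the same plates gave 346, 200, 244, 285, 265, 262, 156 and 39.7 CPM. Foxc2 was thus higher in valve-like wells of every plate, by 1.10 ± 0.46 log2 (exact p = 0.00781). Against collector-like wells the valve-like level was higher by 0.95 ± 1.51 log2 (exact p = 0.0234), and by 0.44 log2 (exact p = 0.0469) without replicate 2 of Tie1 Tie2iΔLEC, whose 9 collector-like wells held 1.79 CPM of Foxc2 against 341 to 473 CPM in the other 7 plates. Collector-like and capillary-like wells did not pass the test (0.15 log2, exact p = 0.891), but did so at 0.72 log2 without that plate (exact p = 0.0156). With both Tie1 Tie2iΔLEC plates left out, an alternative added after the data were seen, the difference was 0.63 log2 (exact p = 0.0312, the smallest that 6 plates allow). In the larger valve-like cluster alone Foxc2 averaged 350 CPM over the plates, near the 355 CPM of collector-like wells. The smaller valve-like cluster averaged 1115 CPM, so the higher level of the class against collector-like wells was not shared by most valve-like wells.

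Prox1, the master factor of lymphatic identity, ranged from 1112 to 1833 CPM in valve-like wells, from 524 to 1202 CPM in capillary-like wells and from 253 to 1241 CPM in collector-like wells. Its mean was 1435 ± 287 CPM in valve-like, 842 ± 222 CPM in capillary-like and 719 ± 293 CPM in collector-like wells (SD, n = 8). Valve-like wells were higher than capillary-like wells in 7 of 8 plates by 0.79 ± 0.50 log2 (exact p = 0.0156) and higher than collector-like wells by 1.09 ± 0.76 log2 (exact p = 0.0156). The exception was replicate 1 of Tie1 Tie2iΔLEC, with 1112 CPM in valve-like and 1202 CPM in capillary-like wells. Nfatc1, the calcineurin-dependent factor, was higher in valve-like than in capillary-like wells of all 8 plates by 0.81 ± 0.26 log2 (exact p = 0.00781) and higher than in collector-like wells by 0.91 ± 0.25 log2 (exact p = 0.00781), with means of 960, 554 and 506 CPM.

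Nr2f2, the venous and lymphatic nuclear receptor, ran the other way. It was at 195 ± 63 CPM in capillary-like wells, 92.7 ± 35 CPM in collector-like and 90.8 ± 47 CPM in valve-like wells (SD, n = 8). It was lower in valve-like than in capillary-like wells in all 8 plates by 1.15 ± 0.72 on the log2 scale (exact p = 0.00781), and lower in collector-like than in capillary-like wells in 7 of 8 plates (mean difference -1.15 ± 1.06 log2, exact p = 0.0156). Valve-like and collector-like wells were level on average (exact p = 1), although 7 plates without replicate 2 of Tie1 Tie2iΔLEC gave -0.46 log2 (exact p = 0.0156) and the 6 without either gave -0.51 log2 (exact p = 0.0312). Between valve-like and collector-like wells 4 members were called, against 15.1% of all genes, and between collector-like and capillary-like wells 2, against 10.1%. edgeR with the plate as a block, adjusted over all genes, called 4 members between valve-like and capillary-like wells (Gata2, Nfatc1, Prox1 and Nr2f2, against 3.53% of all genes), 3 between valve-like and collector-like wells (Nfatc1, Prox1 and Gata2, against 3.55%) and Gata2 alone between collector-like and capillary-like wells (1.13%). Foxc2 was not called there (valve-like minus capillary-like 1.02 log2, adjusted p = 0.146).

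Sox18, Tbx1 and Hhex did not separate the classes. Sox18, an early inducer of Prox1, had means of 1322, 1312 and 1352 CPM in capillary-like, collector-like and valve-like wells. Tbx1 had means of 320, 378 and 328 CPM and Hhex of 176, 165 and 147 CPM in the same order. Foxc1 had a mean of 14.6 ± 14 CPM in valve-like against 4.69 ± 3.9 CPM in capillary-like wells, a difference of 1.12 ± 1.36 log2 (exact p = 0.0547). It passed the test at 1.42 log2 without replicate 1 of Tie1 Tie2iΔLEC (exact p = 0.0156) and at 1.52 log2 without either plate (exact p = 0.0312). With members kept among the clustering genes the difference was 0.077 log2 (exact p = 0.898). The capillary name then went to another cluster, of 279 wells led by Lars2 and Gabbr1, so that value compares other wells. In the main clustering a cluster of 280 wells led by Lars2 and Golga4 stayed unnamed and averaged 14.5 CPM of Foxc1.

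**Figure D2:**
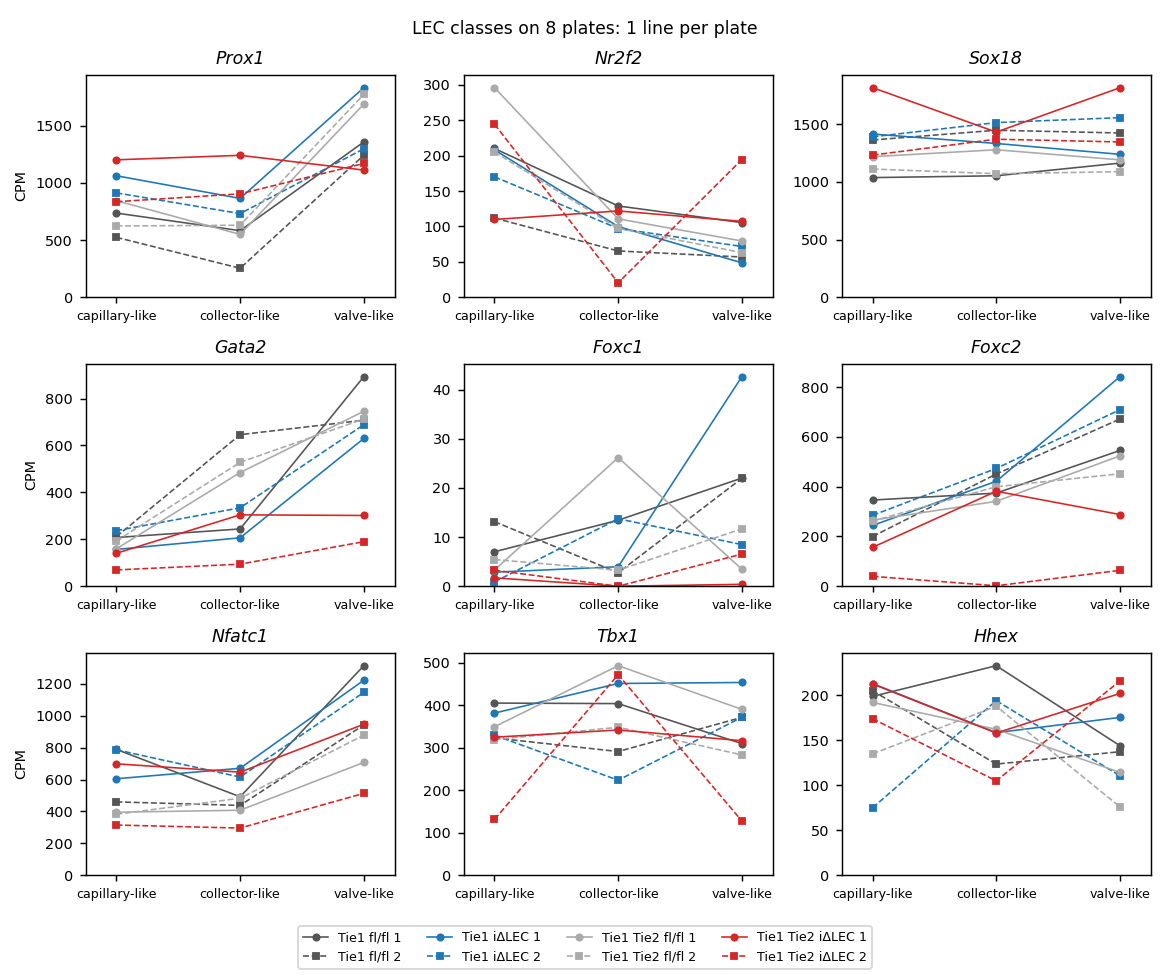
CPM of each member in capillary-like, collector-like and valve-like wells (horizontal axis), 1 point per plate and lines joining the classes of a plate. Gata2 was higher in valve-like than in capillary-like wells of all 8 plates, and Nr2f2 lower.

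The 2 valve-like clusters differed in level. In the smaller cluster the mean over 8 plates was 1111 CPM for Gata2, 1115 CPM for Foxc2, 1925 CPM for Prox1 and 33.4 CPM for Foxc1, while Sox18 stood at 864 CPM. In the larger cluster Gata2 ranged from 182 to 666 CPM and Foxc2 from 35.7 to 689 CPM. The smaller cluster had only 1 well in each Tie1 Tie2iΔLEC plate, so its values there describe single wells. Outside the named classes, unnamed LEC clusters led by Edn1 and Thbs1, by Mest and Ptx3, and by Igfbp5 and Pgf held Foxc2 at 241, 205 and 278 CPM on average and Gata2 at 215, 176 and 301 CPM. In these 3 clusters, too, Gata2 was lower in both Tie1 Tie2iΔLEC plates than in any of the other 6, for example at 182 and 112 CPM against 278 to 412 CPM in the cluster led by Igfbp5 and Pgf. Foxc2 was so in 2 of the 3, with replicate 1 of Tie1fl/fl lower than a deleted plate in the cluster led by Mest and Ptx3. The share of all genes that did so within each cluster was not counted. Another unnamed cluster, of 280 wells led by Lars2 and Golga4, held Foxc2 at 222 CPM and Gata2 at 199 CPM on average. Its plates ranged from 113 to 452 CPM for Gata2. The proliferating cluster ranged from 42.6 to 231 CPM and the interferon cluster from 104 to 441 CPM. Gata2 in these clusters is not split by genotype here.

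**Figure D3:**
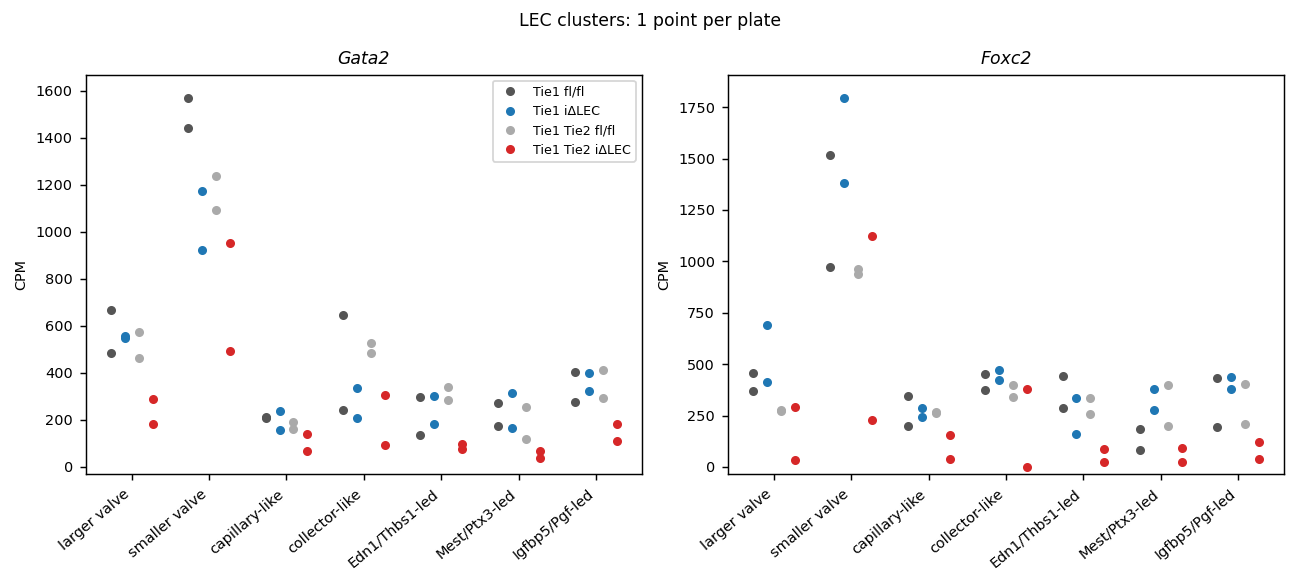
CPM of Gata2 and Foxc2 in LEC clusters of the plates, 1 point per plate coloured by genotype. Drawn are the valve-like, capillary-like and collector-like clusters and the unnamed ones led by Edn1 and Thbs1, Mest and Ptx3, and Igfbp5 and Pgf. The smaller valve-like cluster had the highest means of both genes, 1111 and 1115 CPM.

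In droplet libraries, Prox1, Foxc2 and Tbx1 marked LECs against blood endothelium, whereas Sox18, Gata2, Hhex and Foxc1 were found in both. These libraries have 1 sample per condition, so no test was made, and intervals are exact 95% intervals that cover counting error only. Prox1 was at 1204 CPM in LECs and 41.4 CPM in blood endothelium of the IgG library, a ratio of 29.0 (95% interval 26.7 to 31.7), and at 1363 and 18.9 CPM in the Ang2 antibody library. Foxc2 was at 115 against 4.55 CPM and 95.4 against 2.83 CPM, and Tbx1 at 146 against 8.49 CPM and 161 against 5.40 CPM. Nfatc1 was 4.4-fold and 5.31-fold higher in LECs, and Nr2f2 2.97-fold and 5.28-fold. These 5 members were at least 2-fold lower in blood endothelium as a whole in both libraries, where 10.4% of all genes were so. Venous-like cells alone held Nr2f2 near the LEC level with IgG, at a ratio to LECs of 0.997 (0.944 to 1.05). With the antibody that ratio was 0.697 (0.644 to 0.753). Sox18 was at 429 CPM in LECs and 415 CPM in blood endothelium of the IgG library, Gata2 at 96.6 and 82.0 CPM, Hhex at 82.5 and 67.8 CPM, and Foxc1 at 49.3 and 40.5 CPM. In the Ang2 antibody library Sox18 was at 413 and 386 CPM, Gata2 at 78.7 and 75.1 CPM, Hhex at 91.2 and 58.3 CPM, and Foxc1 at 47.1 and 24.4 CPM, so Hhex and Foxc1 stood further apart there.

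Low levels of LEC genes in blood endothelium were set beside those of fibroblast-like cells. That class joined a cluster of 98 and 82 cells (IgG and Ang2 antibody) and one of 47 and 40 cells. The larger one had Col2a1 and Acan, both of the chondrocyte list, among its leading genes, so most of the class was cartilage-like. The smaller one was led by Mfap5 and Dcn. After each cell was thinned to 3000 UMIs, Prox1 was found in 5.22% and 3.39% of blood endothelial cells (IgG and Ang2 antibody), and in 6.52% and 0% of fibroblast-like cells, which should lack it. Foxc2 was found in 1.11% and 0.763% of blood endothelial cells against 3.62% and 0.909% of fibroblast-like cells, and Tbx1 in 2.14% and 1.36% against 2.90% and 0.909%. Median depth was 8961 and 7770 UMIs in blood endothelium and 19491 and 16838 UMIs in fibroblast-like cells. With the antibody, the exact 95% intervals of the Prox1 shares were 2.43 to 4.59 in blood endothelium and 0 to 3.30 in fibroblast-like cells. Whether the shares of Prox1, Foxc2 and Tbx1 in blood endothelium are background was not tested. Without the 5% of cells with the highest doublet scores, the Prox1 ratio of blood endothelium to LECs went from 0.0344 to 0.0142 in the IgG library. The doublet caller marked 0.145% and 0.0675% of cells, under the share at which it can be taken to have worked. Arterial-like cells stood apart for Tbx1, which was found in 10.6% (exact 95% interval 6.27 to 16.4) and 2.91% (0.950 to 6.65) of them after thinning and in 0% of venous-like cells of both libraries. Its level was 27.0 and 20.9 CPM in arterial-like cells against 2.70 and 1.85 CPM in venous-like cells, a difference beyond counting error.

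Within blood endothelium, Nr2f2 was at 471 and 343 CPM in venous-like cells against 33.9 and 12.3 CPM in arterial-like cells (IgG and Ang2 antibody), with capillary-like blood endothelium at 46.8 and 36.7 CPM. Gata2 was highest in arterial-like cells, at 173 and 168 CPM against 52.5 and 56.4 CPM in venous-like cells, and Hhex followed at 130 and 107 CPM in arterial-like cells. Nr2f2 was not particular to endothelium, since pericyte-like cells held 524 and 627 CPM of it.

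Valve-like and capillary-like droplet LECs differed in the direction of the plates for Gata2, Foxc2, Prox1, Nfatc1 and Nr2f2. Valve-like droplet LECs held Gata2 at 225 and 149 CPM against 60.2 and 26.8 CPM in capillary-like droplet LECs, and Foxc2 at 188 and 123 CPM against 66.3 and 43.5 CPM. Prox1 was at 2756 and 2928 CPM in valve-like cells, 1255 and 1098 CPM in capillary-like cells, and 713 and 886 CPM in collector-like cells. Nr2f2 ran from 782 and 772 CPM in capillary-like to 309 and 286 CPM in valve-like cells. Nfatc1 was at 471 and 487 CPM in valve-like and 256.5 and 247 CPM in capillary-like cells, while its 188 and 280 CPM in collector-like cells lay below capillary-like cells in the IgG library and above them in the other. Foxc1 was 4.78-fold and 6.02-fold higher in valve-like than in capillary-like cells. A further unnamed LEC cluster of 92 and 85 cells was led by Adm and Cd79a, with 1 of 4 valve markers raised over other LECs. It held Foxc2 at 362 and 401 CPM, Foxc1 at 211 and 237 CPM, and Gata2 at 232 and 247 CPM, above the valve-like class. When all cells were clustered together, a cluster of 156 and 127 cells had 4 of 4 valve markers raised. Adm, Cd79a and Fibin were among the leading genes of both clusters, and whether they hold the same cells was not tested.

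**Figure D4:**
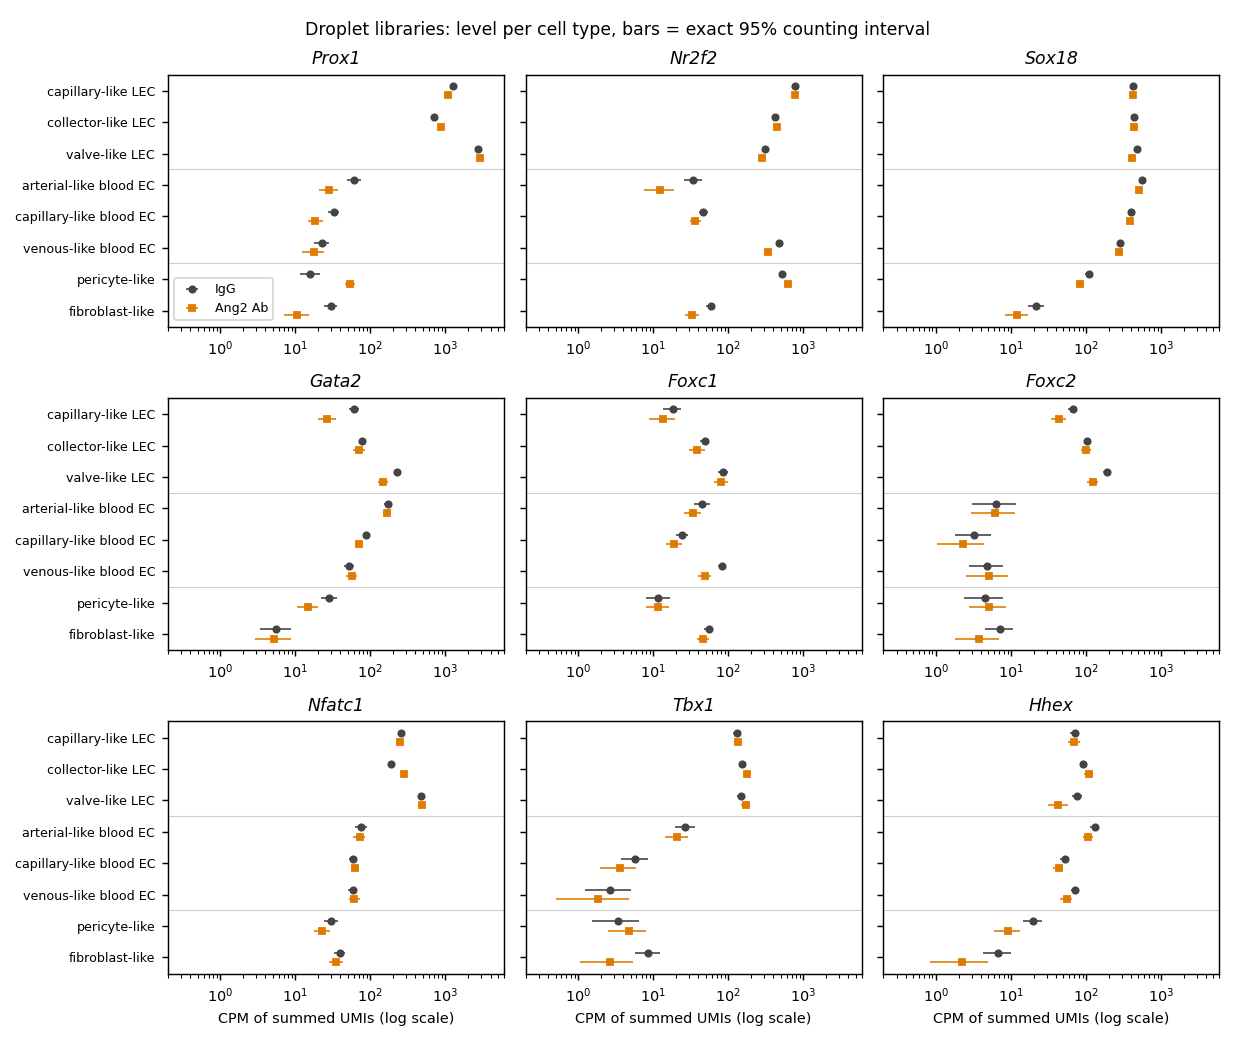
CPM of each member (horizontal axes, log scale) in the IgG and Ang2 antibody libraries, with exact 95% counting intervals. Vertical axes list LEC classes, blood endothelial classes, pericyte-like and fibroblast-like cells. Prox1, Foxc2 and Tbx1 were lower in each blood endothelial class than in all LECs, whose sum is not drawn. Tbx1 was at 27.0 and 20.9 CPM in arterial-like cells, and Nr2f2 was high in venous-like cells at 471 and 343 CPM.

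Tie1 deletion alone called no member. In summed LEC wells, the quasi-likelihood fit of edgeR, adjusted by Benjamini-Hochberg over 19817 genes, called 0 of the 9 members and 0% of all genes. It gave 1 member and 863 genes (4.35%) an unadjusted p under 0.05, and DESeq2 called 0 members and 252 genes (0.834%). Prox1 had the smallest p. Its level was 707 and 688 CPM in Tie1fl/fl and 1096 and 881 CPM in Tie1iΔLEC, without overlap, as for 29% of all genes in one direction or the other. The log2 difference was 0.50 ± 0.18 (SE, edgeR adjusted p = 1). Prox1 in Tie1 Tie2fl/fl was at 898 and 854 CPM, so the Tie1fl/fl plates were the low ones among controls. Foxc2 was at 359 and 343 CPM in Tie1fl/fl and 384 and 437 CPM in Tie1iΔLEC (0.23 log2), and Gata2 at 305 and 382 CPM and 294 and 368 CPM (-0.05 ± 0.27 log2). Hhex was at 157 and 153 CPM and 141 and 128 CPM. The remaining members had overlapping plates, with log2 differences between -0.22 and 0.24.

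After the Tie1/-2 deletion Gata2 and Foxc2 were the lowest of all genotypes, and neither passed the adjusted threshold in edgeR. No member was called, against 1.19% of all genes (236 genes, 62 higher and 174 lower), while 2 members and 2120 genes (10.7%) had an unadjusted p under 0.05. DESeq2 called 1 member, Gata2, and 1135 genes (3.76%). Gata2 was at 382 and 383 CPM in Tie1 Tie2fl/fl and 174 and 108 CPM in Tie1 Tie2iΔLEC, a log2 difference of -1.44 ± 0.27 (SE, edgeR adjusted p = 0.0550, and DESeq2 adjusted p = 0.00145). Foxc2 was at 364 and 314 CPM against 166 and 34.9 CPM, a log2 difference of -1.76 ± 0.58 (edgeR adjusted p = 0.314). The deleted plates differed from each other more for Foxc2 than for Gata2. Without replicate 1 of Tie1 Tie2iΔLEC the values were -3.32 (edgeR adjusted p = 0.00870) for Foxc2 and -1.86 (edgeR adjusted p = 0.0338) for Gata2, and without replicate 2 Foxc2 was at -1.03 (edgeR adjusted p = 0.148). Each of these fits leaves 1 Tie1 Tie2iΔLEC plate, which is assumed to vary like the plates of the other groups. Prox1, Gata2 and Foxc2 are among the genes that the study itself named on these samples, so their directions are not independent evidence.

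Foxc1 was at 10.8 and 5.47 CPM in Tie1 Tie2fl/fl and 4.35 and 3.86 CPM in Tie1 Tie2iΔLEC (-0.99 ± 0.64 log2, edgeR unadjusted p = 0.159). Tbx1 was at 408 and 345 CPM against 332 and 147 CPM, with the low value from replicate 2 alone. Hhex was at 163 and 138 CPM against 200 and 196 CPM (0.40 ± 0.20 log2, edgeR unadjusted p = 0.0852). Gata2, Foxc1 and Foxc2 lay below all 6 other plates in both Tie1 Tie2iΔLEC plates, as 7.12% of all genes did, and Hhex lay above them, as 5.61% did. Prox1 was at 943 and 857 CPM against 898 and 854 CPM (0.04 ± 0.18 log2), Nr2f2 at 100 and 173 CPM against 150 and 125 CPM, Sox18 at 1678 and 1204 CPM against 1221 and 1127 CPM, and Nfatc1 at 654 and 337 CPM against 469 and 560 CPM, and these 4 overlapped with their controls. The other 5 did not overlap with Tie1 Tie2fl/fl, as was so for 37.2% of all genes.

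The share of wells with a count was also lower in both Tie1 Tie2iΔLEC plates than in Tie1 Tie2fl/fl, but within a genotype it did not always follow the level. In wells thinned to 50000 counts, Foxc2 was found in 65.5% and 75.4% of LEC wells of Tie1 Tie2fl/fl and in 32.5% and 14.9% of Tie1 Tie2iΔLEC, and Gata2 in 63.6% and 75.7% against 37.2% and 38.7%. In the single-floxed plates Foxc2 was found in 88.4% and 59.5% of Tie1fl/fl and 91.2% and 60.1% of Tie1iΔLEC wells, where replicate 1 was high in both genotypes. Kept wells of replicate 1 also had more detected genes, at a median of 6802 (Tie1fl/fl) and 6847.5 (Tie1iΔLEC). In replicate 2 the medians were 4044 and 3651.5. The part of this in the shares was not tested. Cell makeup and several marker lists moved alongside, but the valve list did not. In the Tie1 Tie2iΔLEC plates the valve list summed to 1182 and 900 CPM, within the 826 to 1643 CPM of the other 6. The collector list summed to 2802 and 1969 CPM against 3422 to 4713 CPM in the other 6. The capillary LEC list summed to 2326 and 1896 CPM against 2531 to 3098 CPM. The blood endothelial list summed to 543 and 563 CPM against 636 to 825 CPM, the arterial list to 924 and 797 CPM against 1493 to 1987 CPM, and the venous list to 42.0 and 50.9 CPM against 326 to 682 CPM. The chondrocyte list summed to 5.49 and 9.17 CPM against 273 to 557 CPM, and the pericyte and smooth muscle list to 170 and 148 CPM against 9.22 to 65.5 CPM. Of these lists, all 6 capillary, all 7 collector and all 4 valve markers were above 1 CPM in every plate, as were 5 of 6 arterial markers. In the deleted plates 2 of 6 venous markers were so. The chondrocyte list had 1 of 4 markers above 1 CPM in every plate except replicate 1 of Tie1iΔLEC, which had 2. In both deleted plates 3 of 8 pericyte and smooth muscle markers were above 1 CPM, against 2 to 7 in the other plates. Kcnj8 of that list also led the LEC cluster of Mest and Ptx3. That cluster held 16.8% of kept Tie1 Tie2iΔLEC wells, against 6.17% to 10.9% in the other genotypes. The part of these lists and shares in the member levels was not tested. The remaining lists summed to 19.3 to 229 CPM for fibroblasts, 8.61 to 46.0 CPM for keratinocytes, at most 2.29 CPM for leukocytes and 0.782 to 8.60 CPM for Schwann cells.

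The test of the difference between the deletions called no member, against 0.136% of all genes, with 2 members and 1457 genes (7.35%) at an unadjusted p under 0.05 in edgeR. DESeq2 called 0 members and 1.71% of genes. The difference was -1.39 ± 0.38 log2 for Gata2 (edgeR adjusted p = 0.381) and -1.98 ± 0.80 log2 for Foxc2 (edgeR adjusted p = 0.634). Without replicate 1 of Tie1 Tie2iΔLEC the Foxc2 value was -3.54 (edgeR adjusted p = 0.0253), under the same assumption for the 1 plate left. The average of both deletions also called 0 members in edgeR, against 0.0303% of all genes, and 0 in DESeq2, against 2.33%. Gata2, at -0.75 ± 0.31 log2 (edgeR adjusted p = 0.600), was the 1 member with an unadjusted p under 0.05, which 7.76% of all genes had.

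In the valve-like class, named without Cldn11 and without the members, Gata2 was at 746 and 713 CPM in Tie1 Tie2fl/fl and 302 and 190 CPM in Tie1 Tie2iΔLEC (-1.53 ± 0.32 log2, edgeR adjusted p = 0.132, and DESeq2 adjusted p = 0.00880). Foxc2 was at 523 and 452 CPM against 288 and 63.8 CPM (-1.40 ± 0.59 log2, edgeR adjusted p = 0.594). The valve-like class had 78 and 66 wells in the deleted plates against 53 and 57, but 1 well each of the smaller cluster, in which both genes were high. The larger cluster held 21.7% and 18.8% of LEC wells in the deleted plates, against 11.25% and 12.5% in Tie1 Tie2fl/fl. In the single-floxed plates it held 8.2% to 17.6%. Genes were standardized within each plate before clustering, so the class of a well depends on the other wells of its plate. The part of this in the class shares and levels of the genotypes was not tested. The paper reports that collecting vessels had almost no valves after deletion of both receptors. Whether wells of the larger cluster came from valves was not tested. In the larger valve-like cluster alone, a split chosen after the data were seen, Gata2 was at 463 and 575 CPM in Tie1 Tie2fl/fl against 289 and 182 CPM in Tie1 Tie2iΔLEC, and Foxc2 at 272 and 275 CPM against 289 and 35.7 CPM. Gata2 was thus lower in both deleted plates there, whereas Foxc2 was low in replicate 2 alone. How many of all genes were lower in both deleted plates of that cluster was not counted. For the other members, changes in the valve-like class are not split by cluster here.

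edgeR called 0 members in any class, in either deletion. For the Tie1/-2 deletion it called 0.118% of all genes in capillary-like, 0.363% in collector-like and 0.243% in valve-like wells, and for the Tie1 deletion 0% in each. DESeq2 called 2 members after the Tie1/-2 deletion, Gata2 in valve-like and Foxc1 in collector-like wells, where it called 2.65% of all genes in capillary-like, 5.59% in collector-like and 2.37% in valve-like wells. It called 0 members after Tie1 deletion, against 0.331%, 0.501% and 1.41% of genes. For the Tie1/-2 deletion edgeR's unadjusted p was under 0.05 in valve-like wells for Gata2, Foxc2, Prox1 (-0.58 ± 0.23 log2) and Hhex (1.14 ± 0.39 log2), where 7.9% of all genes reached it. It was so in capillary-like wells for Foxc2 (-1.38 ± 0.58 log2, 9.2% of all genes), and in collector-like wells for Prox1 (0.84 ± 0.37 log2) and Foxc1 (12.7% of all genes). The collector-like Prox1 value was 0.56 log2 without replicate 1 of Tie1 Tie2iΔLEC. Prox1 in the valve-like class was at 1689 and 1774 CPM in Tie1 Tie2fl/fl and 1112 and 1170 CPM in Tie1 Tie2iΔLEC, and Hhex at 114 and 76.0 CPM against 202 and 216 CPM. For the Tie1 deletion Prox1 reached an unadjusted p under 0.05 in capillary-like (0.70 ± 0.30 log2, 3.12% of all genes) and collector-like wells (0.97 ± 0.37 log2, 2.69%), and no member did in valve-like wells (5.71%). The latter was 0.54 log2 without replicate 2 of Tie1fl/fl, whose 47 collector-like wells held 253 CPM, and 1.63 log2 without replicate 1. Foxc1 had 0 counts in the 9 collector-like wells of either Tie1 Tie2iΔLEC plate.

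With Ang2 antibody, Gata2 stood lower in capillary-like and valve-like LECs and near IgG in unnamed LECs. Foxc2 stood lower in both valve-like clusters and in the capillary-like cluster led by Ptx3, Mrc1 and Mest, but not in the capillary-like cluster led by Slco2b1. Counting intervals of single clusters are not given here. Over all LECs the ratio to IgG was 0.814 (95% interval 0.744 to 0.890) for Gata2 and 0.831 (0.766 to 0.901) for Foxc2, and the latter was 0.971 when single-cell CPM were averaged. Prox1 had a ratio of 1.13 (1.11 to 1.16), Nfatc1 of 1.14 (1.09 to 1.20), Hhex and Tbx1 of 1.10, Nr2f2 of 1.04, Sox18 of 0.963 and Foxc1 of 0.956. No member passed 1.5-fold, where 12% of all genes did. In capillary-like LECs (247 and 141 cells) the Gata2 ratio was 0.446 (0.319 to 0.613) and the Foxc2 ratio 0.655 (0.499 to 0.853). In valve-like LECs (158 and 93 cells) the ratios were 0.664 (0.550 to 0.797) for Gata2, 0.653 (0.531 to 0.798) for Foxc2 and 0.562 (0.395 to 0.788) for Hhex. How many of all genes passed 1.5-fold within a class was not counted. The capillary-like class joined a cluster of 143 and 63 cells led by Slco2b1 and one of 104 and 78 cells led by Ptx3, Mrc1 and Mest, and a plate cluster led by Mest and Ptx3 was left unnamed. Gata2 was at 81.2 and 41.5 CPM in the former and 41.4 and 21.4 CPM in the latter, whereas Foxc2 was at 84.8 and 85.0 CPM in the former and 49.8 and 27.98 CPM in the latter. In the valve-like clusters Gata2 was at 137 and 116 CPM (83 and 53 cells) and at 314 and 200 CPM (75 and 40 cells), and Foxc2 at 72.6 and 58.7 CPM and at 304 and 218 CPM. In collector-like LECs Gata2 was at 77.8 and 71.5 CPM and Foxc2 at 103 and 101 CPM, with Nfatc1 at a ratio of 1.49 (1.33 to 1.66). Unnamed LECs held 600 and 364 Gata2 UMIs, more than any named class. They included the cluster led by Adm and Cd79a, in which neither Gata2 nor Foxc2 was lower with the antibody. The valve-like ratios above leave that cluster out. Over all unnamed LECs the ratios were 0.984 (0.861 to 1.12) for Gata2 and 0.897 (0.799 to 1.01) for Foxc2. After thinning, Gata2 was found in 19.3% of capillary-like LECs with IgG and 8.27% with the antibody. Marker lists moved alongside in all LECs, with median depths of 11736 and 11138 UMIs. From IgG to Ang2 antibody the pan-LEC list summed to 14152 and 10207 CPM, the collector list to 1122 and 642 CPM, the capillary LEC list to 1331 and 1742 CPM, and the valve list to 607 and 925 CPM. The arterial list summed to 1456 and 1110 CPM, the venous list to 205 and 115 CPM, the blood endothelial list to 545 and 489 CPM, the pericyte and smooth muscle list to 36.4 and 60.2 CPM, the fibroblast list to 76.97 and 57.7 CPM, the chondrocyte list to 56.4 and 30.7 CPM, and the leukocyte list to 2.51 and 21.3 CPM. All markers of these lists had UMIs in LECs of both libraries except Cd3e of the leukocyte list, at 0 in both, and Matn1 of the chondrocyte list, at 0 with IgG. The part of these in the member ratios was not tested. Each condition was 1 library, so the intervals hold for these libraries and not for the treatment.

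**Figure D5:**
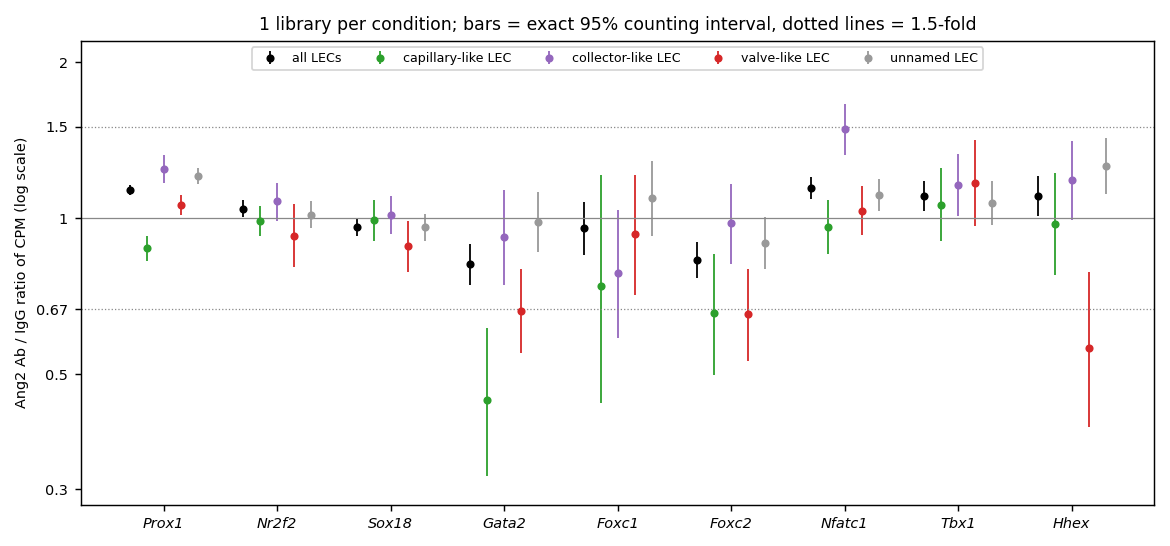
Ratio of CPM in the Ang2 antibody library to the IgG library for each member (log axis), in all LECs and in each LEC class, with exact 95% counting intervals. Gata2 and Foxc2 lay below 1 in capillary-like and valve-like LECs, and no member passed 1.5-fold over all LECs.

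Of 30 other endothelial transcription factors, edgeR called none after Tie1 deletion (1 at an unadjusted p under 0.05, DESeq2 0), against 0% of all genes. After the Tie1/-2 deletion it called 2 lower and 0 higher, against 1.19% of all genes. An unadjusted edgeR p under 0.05 was reached by 8, against 10.7%, and DESeq2 called 6, against 3.76%. Hey1, a Notch target of arterial endothelium, was at 102 and 89.8 CPM in Tie1 Tie2fl/fl and 9.75 and 13.9 CPM in Tie1 Tie2iΔLEC (-3.02 ± 0.40 log2, edgeR adjusted p = 0.0118). Gata6, a relative of Gata2, had 277 and 441 counts in Tie1 Tie2fl/fl and 0 and 2 counts in Tie1 Tie2iΔLEC (edgeR adjusted p = 0.0348), and 22 to 112 counts in the single-floxed plates. The median of the 30 was -0.18 log2, against 0.0032 over all genes.

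A list of 20 genes held those known to act under these factors or to mark their programmes in lymphatic endothelium. After Tie1 deletion edgeR called 0 of them, against 0% of all genes, and DESeq2 2, against 0.834%. An unadjusted edgeR p under 0.05 was reached by 3, against 4.35%. After the Tie1/-2 deletion edgeR called 3 higher and 2 lower, against 1.19% of all genes. The paper reported changes of Cldn11, Nrp2, Angpt2 and Lyve1 in these same samples, so their calls are not independent evidence. Cldn11, a tight-junction gene of valve LECs, was at 403 and 436 CPM in Tie1 Tie2fl/fl and 77.9 and 65.7 CPM in Tie1 Tie2iΔLEC (-2.55 ± 0.20 log2, edgeR adjusted p = 0.00168), and it fell in the valve-like class too (-3.01 log2, edgeR adjusted p = 0.00137). Its difference between the deletions also passed the threshold (-2.76 ± 0.27 log2, edgeR adjusted p = 0.0137). Nrp2, a VEGF-C coreceptor, was at 423 and 430 CPM against 141 and 142 CPM (-1.60 ± 0.27 log2, edgeR adjusted p = 0.0318). Angpt2, the ligand itself, was at 262 and 519 CPM against 3218 and 2635 CPM (2.91 ± 0.32 log2, edgeR adjusted p = 0.00513), Fn1, the fibronectin gene, at 1044 and 1066 CPM against 3628 and 3252 CPM (edgeR adjusted p = 0.00261), and Lyve1, the hyaluronan receptor of capillary LECs, at 1596 and 1632 CPM against 3897 and 3543 CPM (edgeR adjusted p = 0.0394). Cldn11, Nrp2, Angpt2, Fn1 and Lyve1 were called in the contrast that also gave the low Gata2 and Foxc2, which holds for every gene called there. A link between these genes and the members was not tested.

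The pattern of each member over the 24 plate sums of the 3 named classes was compared with 9718 genes of at least 10 CPM, as a description. Foxc2 was most like Gm16575 (Pearson r = 0.93), Peli2 (0.91) and Tmem86a (0.90), and Gata2 most like Gm17114, Arrdc3 and Itgb4 (0.88 each). Prox1 was most like Neo1 (0.88), Arid5a (0.82) and Cpne7 (0.81), and Nfatc1 most like Adgre5 (0.87), Slc41a1 (0.82) and Hmg20b (0.81), where Neo1 and Slc41a1 were used to name the valve-like class. Nr2f2 was most like Zdhhc2 (0.80), Gsap (0.75) and Zfp36l2 (0.74), Sox18 most like Slc34a2 (0.82), AA465934 (0.80) and Gm20532 (0.77), and Foxc1 most like Lypd6 (0.78), Chchd10 (0.74) and Xaf1 (0.73). Tbx1 reached 0.71 with Fance and Nomo1, and Hhex 0.66 with Ccnd1 and Tmem53, the weakest of the members. Between members, Foxc2 and Gata2 had r = 0.72, and Nfatc1 had 0.63 with each of Gata2, Foxc2 and Prox1. The 24 points share 8 plates, their depth and the class labels, so they are not independent.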

How the data were processed

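Ear-skin LECs were sequenced in 8 plates and CD31-sorted skin cells in 2 droplet libraries. The authors deposited raw read counts per gene and well (duplicates removed) and droplet UMI counts. The submitters' notes name TopHat2 2.1.1, SAMtools 0.1.18, Subread featureCounts, Seurat 4.0.6, Cell Ranger 2.1.1 and GRCm38, while a matrix header names a later Cell Ranger. The strand setting is not given in the sources used here.

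Wells under 1000 detected genes were dropped, as were cells under 500 genes or over 10% mitochondrial UMIs. The rest were clustered with scanpy 1.11.5 on 2000 variable genes (30 components, 15 neighbours, resolution 1) that excluded the members and both gene lists. Each gene was standardized within its plate or library before clustering, so class membership is relative to the plate or library. Clusters were named from at least 3 raised markers. Counts were summed per plate over LEC wells or classes and fitted with edgeR 4.0.16 (quasi-likelihood, TMM, Benjamini-Hochberg over all genes tested, threshold 0.05), with DESeq2 1.42.0 as the alternative. Classes were compared within plates by exact sign-flip tests on log2(CPM + 1), without adjustment over the members, beside the share of all genes called. The edgeR and sign-flip steps were tested on simulated data. The labels do not say whether plates of a genotype came from separate mice, so p-values may measure technical spread.

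The members and lists were chosen with earlier results of these data known. The text names the 9 members, list genes called in edgeR, at most 6 per contrast, and the 3 genes most like each member.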

Additional observations from a re-analysis of the deposited data

Results flagged for a closer look

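A plate far from the other 7 was looked for in the 27 within-plate class differences (9 members, 3 pairs of classes) by Dixon's criterion, which chance meets in about 1 in 20 groups. It was met by 6 differences, all from replicate 2 of Tie1 Tie2iΔLEC, which had 9 collector-like wells. Foxc2 differed there between collector-like and capillary-like wells by -3.8681 log2, with the nearest other plate at 0.1118, and between valve-like and collector-like wells by 4.5390 log2, with the nearest at 0.9968. Nr2f2 gave -3.5206 log2 for collector-like minus capillary-like wells (nearest -1.4116) and 3.1931 log2 for valve-like minus collector-like wells (nearest -0.1841). Tbx1 gave 1.8368 log2 (nearest 0.4957) and -1.8772 log2 (nearest -0.3815) for the same pairs. The 6 values share the same 9 wells and are not separate observations.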

How the results depend on the processing

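Groups of 2 plates and 1 droplet library per condition limit every genotype and antibody comparison, and Foxc1, at 3.86 to 13.7 CPM, was near the lower end of what the plates could measure. Members called in edgeR after the Tie1/-2 deletion numbered 0, but 1 with DESeq2, 1 with a term for the layout of the deposited tables (Gata2, -1.48 log2, adjusted p = 0.0232) and 2 without a filter on low counts (Gata2 adjusted p = 5.69e-05, Foxc2 adjusted p = 2.71e-07). The difference between the deletions called 2 without the filter (Gata2 -1.40 log2, adjusted p = 0.0302, and Foxc2 -1.99 log2, adjusted p = 0.000198), and the fits within classes called 2 with DESeq2. With plates left out in turn, members called ranged from 0 to 0 for Tie1 deletion, 0 to 2 for the Tie1/-2 deletion, 0 to 1 for their difference, 0 to 0 for their average and 0 to 2 within classes, where both calls were Foxc2, in collector-like and in valve-like wells (-3.00 log2), without replicate 1 of Tie1 Tie2iΔLEC. That fit leaves 1 Tie1 Tie2iΔLEC plate, assumed to vary like the other groups, and it moved the calls over all genes from 51 to 344 (2.15%) in collector-like and from 37 to 14 (0.0821%) in valve-like wells, while collector-like wells had 375 (2.36%) without replicate 2. The 11 class differences called became 11 to 13, and with the 4 control plates alone 0, since their smallest p is 0.125.

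Within a strain, plates of the same replicate number share the layout of their tables, neighbouring plate labels and, in the single-floxed strain, the sex, and no label names a shared litter, batch or day. The correlation of their deviations was 0.1043 in the single-floxed and 0.0922 in the double-floxed strain. With a replicate block no member was called, Gata2 after the Tie1/-2 deletion was at -1.48 log2 (adjusted p = 0.0562), and Foxc1 after Tie1 deletion turned from 0.12 to -0.0090 log2. Nr2f2 after the Tie1/-2 deletion turned to 0.0109 log2 when all wells were summed. Leaving out plates turned the sign of small changes. After Tie1 deletion Nr2f2 ranged from -0.4173 to 0.0106, Sox18 from -0.1341 to 0.5348, Gata2 from -0.2285 to 0.1152 and Foxc1 from -0.7303 to 0.6444 log2. After the Tie1/-2 deletion Prox1 ranged from -0.0726 to 0.1053, Nr2f2 from -0.4552 to 0.2899, Sox18 from -0.0039 to 0.5144 and Nfatc1 from -0.6499 to 0.3449 log2. The cause was not tested.

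Over all genes, calls after the Tie1/-2 deletion were 236, but 1135 with DESeq2, 1200 without the filter and 83 to 224 with plates left out. Calls after Tie1 deletion were 0, but 252 with DESeq2 and 278 without the filter. Calls of the difference were 27, but 516 with DESeq2, 634 without the filter, 12 with the block, 14 with the layout term and 3 to 18 with plates left out. Calls of the average were 6, but 705 with DESeq2, 268 without the filter, 0 with the block, 3 with the layout term, 2 with all wells and 0 to 6 with plates left out.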
